A study of Mus musculus with 4 samples.

Results

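The 33 genes described here make cholesterol, sense it, take it up and move it within the cell, or export it. They were listed by name, with earlier results of these data known. The list holds 18 enzymes of synthesis, 7 regulators, 5 genes of uptake, storage and intracellular transport, and 3 genes of efflux. All 33 were measured, among 17277 genes that could be named on the array. None passed limma's test for a difference between Dmrt1 knockout and control testes.

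The arrays held RNA of whole testes taken from male mice on postnatal day 9. There were 3 arrays labelled Dmrt1 KO and Cre-positive and 1 array labelled Control and Cre-negative. Every sample, the control included, carries the name DHH-cre in its labels, and no further allele is named there. Dhh, which lends its promoter to the Cre, is a gene of Sertoli cells, which surround and nurse the germ cells. Germ cells also express Dmrt1, so a deletion in Sertoli cells leaves a source of its RNA in the whole testis. Separate animals behind the 3 knockout arrays are not stated in the labels. The p-values therefore measure only the spread between these arrays, which may be technical, and they take the single control to vary as the knockouts do.

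Values are log2 of the deposited intensity, with all differences given as knockout minus control. Array medians ran from 1005 to 1011 intensity units, and no measure of background was used here. Dmrt1 itself had log2 levels of 13.23, 13.38 and 13.66 in the knockout arrays, against 14.16 in the control. It did not pass the test (limma, adjusted p = 0.586), and whether its probes lie in the deleted stretch is not known here, so its level does not check the labels. Markers of several cell types were measured in every array, and their lean differed by cell type. Of the Sertoli cell markers 4 of 9 had a mean above the control and 5 below, of the Leydig cell markers 5 of 8 above and 3 below, and of the germ cell markers 7 of 10 above and 3 below. All 9 macrophage, all 8 adipose and all 4 endothelial markers had a mean above the control, against 50.6% of all transcripts. Of the adipose markers, Adipoq, Cidec, Lep and Retn had intensities far below the array medians. Of the 5 peritubular myoid markers 1 was above and 4 were below. The 1 marker of these lists that passed was Cldn11, the claudin of Sertoli cell tight junctions. It had intensities of 11079, 10582 and 8303 in the knockout arrays, against 32655 in the control, a difference of -1.72 ± 0.28 (SE; limma, adjusted p = 0.0211). Clu, Fshr and Sox9 of the same list lay below the control in every knockout array, at -0.62, -1.12 and -0.56, and Inha, Gata4, Wt1 and Dhh above it, at 0.64, 0.51, 0.42 and 0.39. By the interquartile spread of log2 differences over all transcripts, scaled to an SD, knockout replicate 3 was the closest of the knockouts to the control. That spread was 0.319 for replicate 3, against 0.371 and 0.382 for replicates 1 and 2.

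Cells build cholesterol from acetyl-CoA, through mevalonate and squalene to lanosterol, and then by trimming lanosterol step by step. The SREBP factors, made by Srebf1 and Srebf2, switch on these enzymes when membrane sterol is low, and the INSIG proteins hold them back in the endoplasmic reticulum when sterol is ample. The liver X receptors, made by Nr1h2 and Nr1h3, respond to oxidised sterols and switch on export through ABCA1 and ABCG1. In the testis, Leydig cells turn cholesterol into testosterone, and Sertoli cells take up lipid from the germ cells they engulf.

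The promoters below are shown because SREBP acts on these enzymes through their promoters, together with the factor NF-Y, which binds the CCAAT box. Cyp51 and Idi1 are among the 3 synthesis genes with the largest differences, and Msmo1 lay below the control in every knockout array. Hmgcs1 is the one of the genes searched that matched TCACNCCAC, the letters used here for the sterol regulatory element. Each sequence is RefSeq's for build GRCm38.p6 and runs 5′ to 3′ from 250 bases before the annotated start to 50 bases after it. Capitals mark matches, on either strand, to CCAAT or to TCACNCCAC. Sterol regulatory elements with other letters were not searched for, so a window without a match may still hold one.
Cyp51, chr5:4104648-4104947, minus strand: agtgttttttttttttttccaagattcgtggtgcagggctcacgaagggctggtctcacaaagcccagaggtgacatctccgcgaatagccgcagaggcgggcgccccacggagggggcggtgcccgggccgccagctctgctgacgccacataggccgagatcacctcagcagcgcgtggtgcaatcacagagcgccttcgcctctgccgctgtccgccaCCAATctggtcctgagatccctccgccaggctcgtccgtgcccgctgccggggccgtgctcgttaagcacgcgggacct
Idi1, chr13:8885356-8885655, plus strand: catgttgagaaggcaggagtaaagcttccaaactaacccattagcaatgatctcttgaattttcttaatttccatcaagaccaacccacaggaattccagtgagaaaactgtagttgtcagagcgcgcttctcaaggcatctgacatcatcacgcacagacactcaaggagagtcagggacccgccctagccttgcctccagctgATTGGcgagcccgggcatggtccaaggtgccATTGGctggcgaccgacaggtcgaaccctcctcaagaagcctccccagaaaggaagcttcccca
Hmgcs1, chr13:119690101-119690400, plus strand: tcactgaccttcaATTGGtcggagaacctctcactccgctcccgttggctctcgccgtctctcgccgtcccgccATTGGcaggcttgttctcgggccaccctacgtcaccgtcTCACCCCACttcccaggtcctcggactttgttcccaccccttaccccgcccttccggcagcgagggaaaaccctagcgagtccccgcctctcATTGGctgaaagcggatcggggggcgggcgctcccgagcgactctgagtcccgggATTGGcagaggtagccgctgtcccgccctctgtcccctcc
Msmo1, chr8:64733529-64733828, minus strand: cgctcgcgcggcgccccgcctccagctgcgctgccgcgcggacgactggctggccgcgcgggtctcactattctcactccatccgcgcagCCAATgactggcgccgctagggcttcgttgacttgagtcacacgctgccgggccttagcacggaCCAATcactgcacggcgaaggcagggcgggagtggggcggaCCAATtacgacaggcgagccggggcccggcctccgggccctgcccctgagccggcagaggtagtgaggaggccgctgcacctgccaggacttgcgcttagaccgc

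The match to TCACNCCAC in Hmgcs1 begins 137 bases before the start. These letters were found in 1 of the 37 promoter windows of the group (2.7%), against 1.24% of all 32851 windows of the same length. The CCAAT box, searched as those letters on both strands, was in 21 of the 37 windows (56.8%), against 37.4% of all. The E-box CACGTG, which SREBP can also bind, was in 7 of the 37 (18.9%), against 7.15% of all and has no match in the 4 windows shown. No match overlaps another in those 4 windows. The 37 windows belong to 26 of the 33 genes, some with several annotated starts. The other 7, Sqle, Fdft1, Fdps, Scarb1, Npc1, Stard4 and Abcg1, were not searched. A match is a description of letters and does not show that a factor binds.

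No gene of the group passed the test, and most differences were small. limma called 0 of 33, against 0.655% of all 25631 transcripts, with 0.156% called higher and 0.499% lower. At an unadjusted p under 0.05 it gave 1 of 33 higher, Cyp51, and 0 lower, against 3.15% higher and 3.27% lower of all transcripts (6.42% in all). The median absolute difference was 0.24 on the log2 scale for the 33 genes and 0.20 for all transcripts. The 95% intervals of the 33 differences, unadjusted, reached from -1.17 for Soat1 to 1.23 for Fdft1. Those ends correspond to a 2.25-fold lower and a 2.35-fold higher level. They hold for 1 gene at a time and do not bound the 33 genes jointly. For 24 of the 33 genes the interval stayed within 1 log2 unit of 0. The smallest difference called over all transcripts was 1.35.

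**Figure D1:**
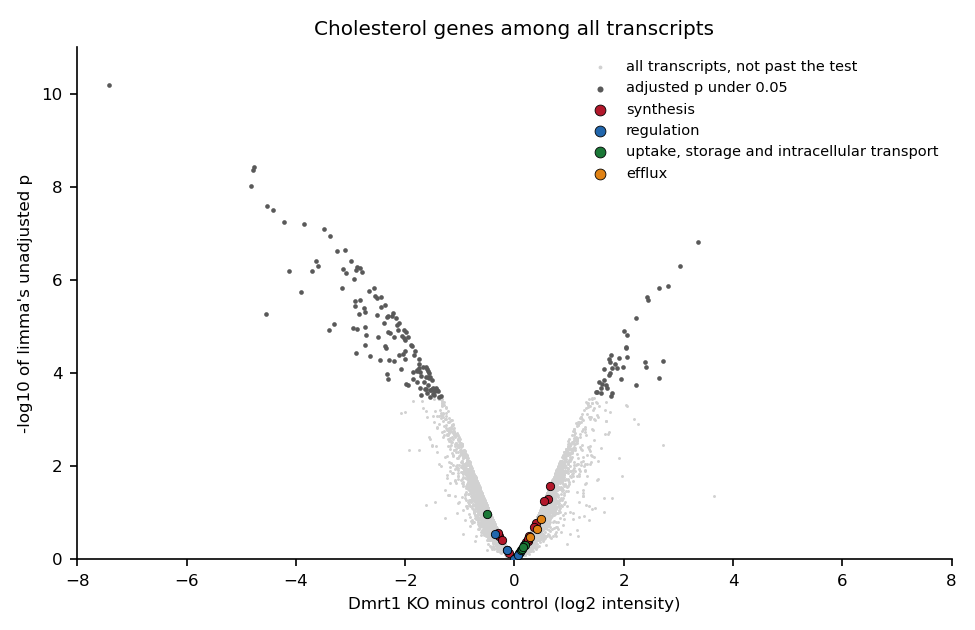
Difference between Dmrt1 KO and control (x axis, log2 intensity) against -log10 of limma's unadjusted p (y axis) for all 25631 transcripts, with the 33 cholesterol genes coloured by role. The cholesterol genes sit near the base of the plot, between -0.51 and 0.65 on the x axis, and none is among the 168 transcripts past an adjusted p of 0.05.

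The differences leaned to the positive side. In 24 of the 33 genes (72.7%) the mean of the knockout arrays was above the control, against 50.6% of all transcripts. Every knockout array lay above the control in 17 of the 33, against 25.6% of all transcripts, and below it in 5, against 24.1%. The median difference was 0.15 for the 33 genes, 0.24 for synthesis, 0.01 for regulation, 0.13 for uptake, storage and transport, and 0.41 for efflux. Over all transcripts it was 0.0043. Many of these genes answer to the same regulators, so they are not independent of each other, and the counts describe these 4 arrays. The 33 genes were also chosen with earlier results of these data known, so the lean is no test of the group. Of 42 further sterol genes outside the 33, 21 were above and 21 below the control by the mean.

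Cyp51, the enzyme that takes a methyl group off lanosterol, had the largest difference of the 33. Its intensity was 723, 720 and 718 in the knockout arrays, against 460 in the control, or log2 levels of 9.50, 9.49 and 9.49, against 8.84. The knockout arrays agreed within 0.01 log2 units and all lay above the control. The difference was 0.65 ± 0.25 (SE, 3 knockout arrays and 1 control), or 1.57-fold, with a 95% interval of 0.09 to 1.21. It did not pass over all transcripts (limma, adjusted p = 0.63), and 6.46% of all transcripts had a larger absolute difference.

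Fdft1, squalene synthase, which commits farnesyl units to sterols, came next. Its log2 levels were 9.72, 9.96 and 10.18 in the knockout arrays, against 9.34 in the control. All 3 knockout arrays lay above the control, but they spread over 0.46 log2 units among themselves. The difference was 0.62 ± 0.28 (SE, 3 knockout arrays and 1 control; limma, adjusted p = 0.779). Idi1, which isomerises the basic isoprene unit, had log2 levels of 13.63, 13.61 and 13.51, against 13.04. The knockouts stood close together above the control, at a difference of 0.54 ± 0.25 (limma, adjusted p = 0.798).

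Along the mevalonate arm the other enzymes lay on both sides of the control. Hmgcs1, which forms HMG-CoA, had log2 levels of 14.60, 14.55 and 14.48 in the knockout arrays, against 14.28 in the control, a difference of 0.27 ± 0.25 (SE). Fdps, which joins isoprene units into farnesyl diphosphate, had 12.77, 12.84 and 13.33, against 12.59, a difference of 0.39 ± 0.30. All knockout arrays lay above the control for both genes, and for Fdps replicate 3 stood well above the others, with a difference of 0.21 without it. Pmvk, the phosphomevalonate kinase, had 9.31, 9.37 and 9.77, against 9.78, a difference of -0.29 ± 0.28, with replicate 3 level with the control. Acat2, the thiolase of the opening step, Mvk, the mevalonate kinase, and Mvd, which decarboxylates the product, differed by -0.14, 0.09 and -0.10. Their knockout arrays lay on both sides of the control.

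In the squalene arm, Sqle, the squalene epoxidase that acts as a control point of the pathway, had log2 levels of 13.59, 13.22 and 13.75 in the knockout arrays, against 13.27 in the control. Replicate 2 was just below the control and the others above it, for a difference of 0.25 ± 0.29 (SE) that was 0.40 without replicate 2 and 0.14 without replicate 3. Lss, which folds squalene epoxide into lanosterol, differed by 0.22 ± 0.27, with all knockout arrays above the control, and by 0.14 without replicate 3.

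In the sterol arm, 5 of 8 enzymes had every knockout array above the control, against 25.6% of all transcripts. Another 2 of the 8 had every one below it, against 24.1% of all transcripts. Sc5d, a sterol desaturase, had log2 levels of 11.18, 11.19 and 10.84 in the knockout arrays, against 10.66 in the control, a difference of 0.40 ± 0.27 (SE). Tm7sf2, a sterol reductase, had 9.51, 9.57 and 9.74, against 9.26, a difference of 0.35 ± 0.26. Both were above the control in every knockout array, as were Nsdhl at 0.24 and Dhcr7, the reductase of the closing step. Dhcr7 had 12.92, 12.83 and 13.31, against 12.78, a difference of 0.24 ± 0.28 that was 0.09 without replicate 3. Msmo1, the methyl sterol oxidase that acts after Cyp51, had 12.47, 12.71 and 12.66, against 12.92, a difference of -0.30 ± 0.26. Ebp, a sterol isomerase, differed by -0.23 ± 0.25, and its 3 knockout arrays were also all below the control. Hsd17b7, a ketosterol reductase, was at 0.03, with knockout arrays on both sides.

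**Figure D2:**
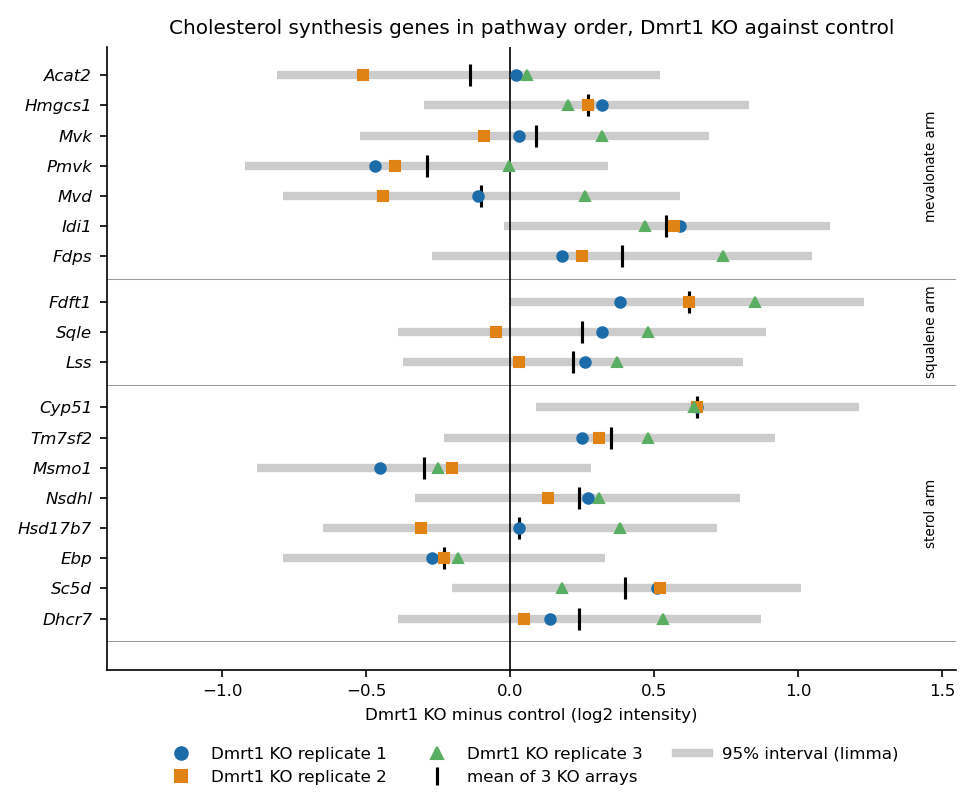
Knockout minus control (x axis, log2 intensity) for the 18 synthesis genes in pathway order from top to bottom, with a symbol for each knockout array, a tick for their mean and limma's 95% interval as a grey bar. Cyp51, Fdft1 and Idi1 lie farthest right, at 0.65, 0.62 and 0.54, Msmo1 and Pmvk farthest left, at -0.30 and -0.29, and the interval of Cyp51 is the one that leaves out 0.

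The synthesis genes also differed among the knockout arrays. In 13 of the 18, replicate 3 was the highest of the knockouts, against 35.2% of all transcripts. In 8 of the 18 the order from high to low was replicate 3, 1, 2, against 16.6% of all transcripts, and these were Sqle, Lss, Dhcr7, Mvd, Mvk, Nsdhl, Hsd17b7 and Acat2. Mvd, for example, had log2 levels of 12.06, 11.72 and 12.43 in knockout replicates 1, 2 and 3, against 12.17 in the control, so the knockout arrays lay 0.70 apart. This order was noticed in the values, and it was not tested. The median difference of the 18 genes from the control was 0.22, 0.04 and 0.35 in knockout replicates 1, 2 and 3, and it was 0.14 without replicate 3, against 0.24 with all arrays.

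Leydig cell markers, all 8 measured, spread widely over the same arrays, and none passed the test. Hsd3b1, a steroid dehydrogenase, was at 0.76 ± 0.26 (SE) with every knockout array above the control, as were Hsd3b6, Star and Cyp11a1. Hsd17b3, Insl3 and Lhcgr had negative means, of -0.57, -0.11 and -0.01. The summed intensity of the 8 was 82598, 116824 and 129303 in knockout replicates 1, 2 and 3, against 86841 in the control, and their median difference was -0.12, 0.56 and 0.66. Most of the gap between replicates 2 and 3 and the control came from Cyp17a1, a steroid hydroxylase, at 25468, 47328 and 53542, against 30891, and from Hsd3b1, at 24876, 27413 and 28684, against 15953. The summed intensity of the 18 synthesis genes was 104101, 95093 and 112403, against 91707. Both sums were highest in replicate 3, but replicates 1 and 2 stood in opposite order. In whole-testis RNA, a change in the number of cells of a type and a change in RNA per cell cannot be told apart. The part of Leydig cells in the synthesis values was not tested.

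**Figure D3:**
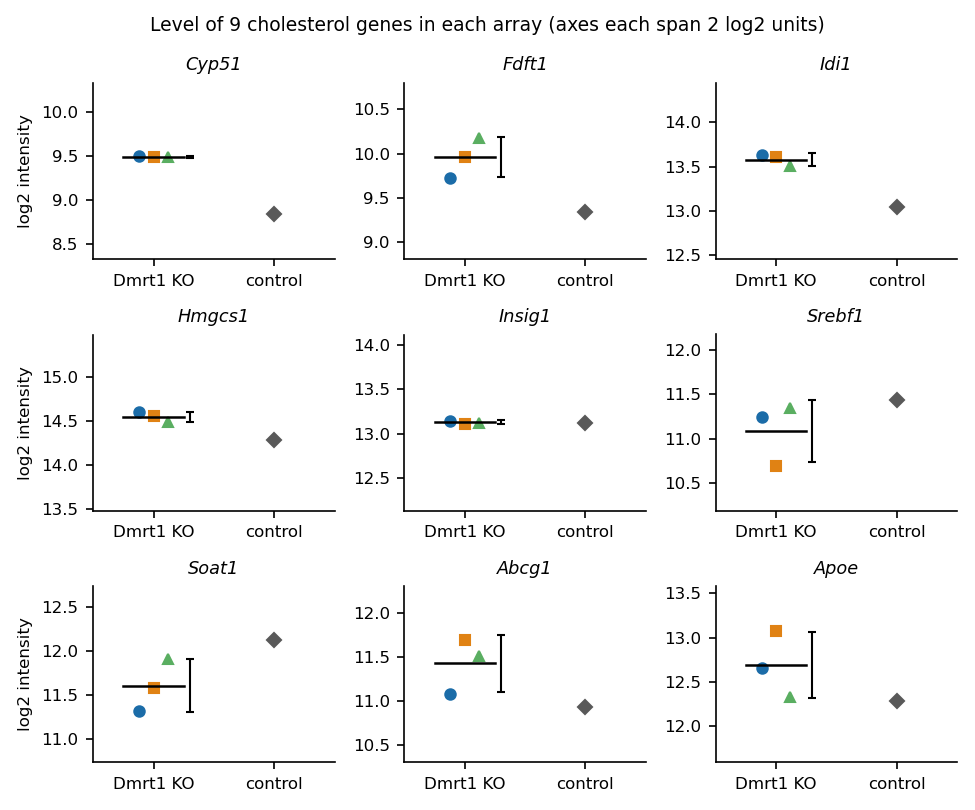
Log2 intensity (y axes, each spanning 2 log2 units) of 9 genes in the 3 Dmrt1 KO arrays (left, bar for the mean and error bar for the SD) and the control array (right, diamond). The knockout arrays of Cyp51 and Idi1 cluster tightly above the control, those of Insig1 coincide with it, and those of Srebf1, Abcg1 and Apoe spread by 0.62 to 0.74.

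The regulators showed the smallest median. Insig1, which holds SREBP back and is itself an SREBP target, had log2 levels of 13.14, 13.11 and 13.12 in the knockout arrays, against 13.12 in the control. The 4 values lay within 0.04 log2 units of each other, with a difference of 0.01 ± 0.25 (SE) and a 95% interval of -0.55 to 0.57. Its partner Insig2 had 12.79, 12.45 and 12.84, against 12.59, a difference of 0.10 ± 0.27. The other transcript of Insig2 had 12.47, 11.93 and 12.63, against 12.74, a difference of -0.40 ± 0.31, so the transcripts of this gene disagreed in sign and neither passed.

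Srebf1, whose SREBP1 product acts more on fatty acid synthesis, had log2 levels of 11.24, 10.69 and 11.35 in the knockout arrays, against 11.44 in the control. Every knockout array was below the control, and replicate 2 was far below the others. The difference was -0.35 ± 0.31 (SE; limma, adjusted p = 0.996), and it was -0.15 without replicate 2. Srebf2, whose SREBP2 product acts more on cholesterol synthesis, had 11.69, 11.83 and 12.11, against 12.01, a difference of -0.14 ± 0.27. Scap, the escort of SREBP, differed by 0.18 ± 0.25, with all knockout arrays above the control.

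The liver X receptor genes were level with the control. Nr1h2 had log2 levels of 12.68, 12.39 and 12.66 in the knockout arrays, against 12.58 in the control, and Nr1h3 had 9.75, 9.80 and 9.52, against 9.63. The knockout arrays lay on both sides of the control for each gene. The 95% intervals of the differences were -0.59 to 0.58 for Nr1h2 and -0.52 to 0.64 for Nr1h3.

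Of the genes of uptake and intracellular transport, Soat1 had the largest difference and a negative mean, and the other 4 had positive means. Soat1 esterifies cholesterol for storage. Its log2 levels were 11.32, 11.58 and 11.91 in the knockout arrays, against 12.12 in the control. Every knockout array lay below the control, with replicate 3 nearest to it, and the difference was -0.51 ± 0.29 (SE; limma, adjusted p = 0.908). Scarb1, the receptor that takes cholesteryl ester from high-density lipoprotein, differed by 0.12 ± 0.25, and Stard4, a carrier of cholesterol between membranes, by 0.15 ± 0.25. For both, every knockout array was above the control, and the knockouts lay within 0.12 and 0.07 of each other.

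Npc1 and Npc2 act together to release cholesterol from lysosomes. Npc1 had log2 levels of 11.25, 10.99 and 10.70 in the knockout arrays, against 10.78 in the control, a difference of 0.20 ± 0.29 (SE). Npc2 had 10.41, 10.19 and 10.29, against 10.17, a difference of 0.13 ± 0.26. Replicate 1 was the highest for both genes, and replicate 3 was below the control for Npc1 alone. The median of the 5 genes was 0.07 without replicate 1, against 0.13 with all arrays.

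The efflux genes had the highest median of the 4 roles, with every knockout array above the control for all 3, against 25.6% of all transcripts. Abca1, which loads cholesterol onto lipid-poor apolipoprotein, had log2 levels of 12.50, 12.95 and 12.76 in the knockout arrays, against 12.46 in the control, a difference of 0.28 ± 0.28 (SE). Abcg1, which passes cholesterol to mature lipoprotein particles, had 11.08, 11.70 and 11.51, against 10.94, a difference of 0.49 ± 0.30 (limma, adjusted p = 0.943). Apoe, an apolipoprotein made by macrophages and other cells, had 12.66, 13.07 and 12.33, against 12.28, a difference of 0.41 ± 0.32 (limma, adjusted p = 0.987). Replicate 2 was the highest knockout array for all 3 genes, against 34.8% of all transcripts, and the lowest knockout array of each lay within 0.14 of the control. The median of the 3 differences was 0.22 without replicate 2, against 0.41 with all arrays.

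Macrophage markers leaned the same way in these arrays. Of 10 listed, 9 were measured, and in 7 of the 9 every knockout array lay above the control, against 25.6% of all transcripts. Their summed intensity was 22007, 26609 and 25585 in knockout replicates 1, 2 and 3, against 18053 in the control, and their median difference was 0.19, 0.75 and 0.53. The complement gene C1qc differed by 0.64 ± 0.26 and the lysosomal protease Ctss by 0.71 ± 0.28 (SE), and neither passed. For the efflux genes the median was 0.14, 0.76 and 0.31 in the same order of arrays. The macrophage markers did not share a single order. Replicate 2 was the highest knockout array for C1qa, C1qb, C1qc and Lyz2, and replicate 3 for Adgre1, Csf1r, Cd14, Mrc1 and Ctss. Adgre1, Csf1r and Mrc1 differed by 0.82, 0.53 and 0.66 in replicate 3, against -0.02, 0.09 and 0.03 in replicate 2. Macrophages are known for high expression of Abca1, Abcg1 and Apoe, and their part in these values was not tested.

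**Figure D4:**
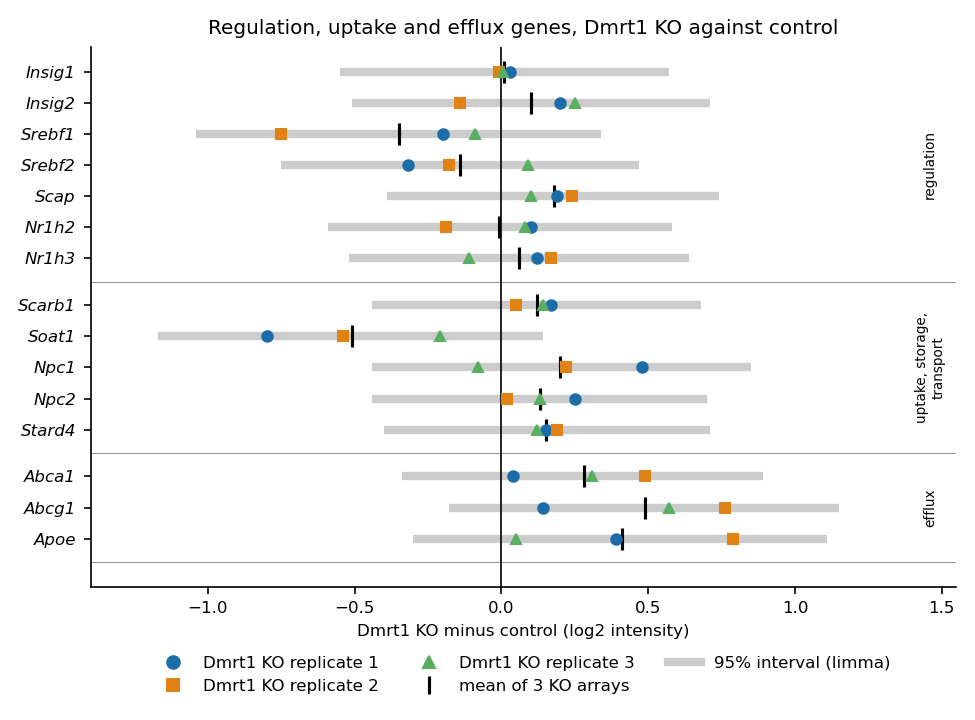
Knockout minus control (x axis, log2 intensity) for the 15 genes of regulation, uptake, storage and transport, and efflux, with a symbol for each knockout array, a tick for their mean and limma's 95% interval as a grey bar. Soat1 and Srebf1 lie farthest left, at -0.51 and -0.35, and the efflux genes farthest right, at 0.28 to 0.49, with replicate 2 the highest in each.

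Further sterol genes outside the 33 showed no lean to either side. Of 44 listed, 42 were measured, with 21 above and 21 below the control by the mean and a median difference of 0.01. limma called 0 of the 42, against 0.655% of all transcripts. At an unadjusted p under 0.05 there were 0 in either direction, against 6.42% of all transcripts. Among those with the largest differences were Lrp8, a lipoprotein receptor, at -0.63 ± 0.36, Nceh1, a cholesteryl ester hydrolase, at 0.54 ± 0.30, and Gramd1a, a sterol carrier between membranes, at -0.54 ± 0.26 (SE).

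Of 12 fatty acid genes known as SREBP1 targets, all were measured and limma called 0, against 0.655% of all transcripts. At an unadjusted p under 0.05 there were 3 higher, against 3.15% of all transcripts, and 0 lower, against 3.27%. Scd1, a desaturase, had log2 levels of 11.60, 11.75 and 11.18 in the knockout arrays, against 10.23 in the control, a difference of 1.28 ± 0.29 (SE; limma, adjusted p = 0.13). Me1, malic enzyme, differed by 0.97 ± 0.33, Elovl6, an elongase, by 0.63 ± 0.31, and Thrsp by 0.61 ± 0.26, each with every knockout array above the control. The median of the 12 was 0.16, with differences from -0.44 to 1.28. Adipose markers, all 8 measured, had a summed intensity of 4679, 5423 and 3908 in knockout replicates 1, 2 and 3, against 3183 in the control. Most of that gap came from Lpl, lipoprotein lipase, at 1366, 2390 and 999, against 453. All 8 markers had a mean above the control. Adipoq, at intensities of 87.2, 127 and 117, against 61.2, differed by 0.83 ± 0.29 (SE), with every knockout array above the control. Fabp4, Plin1 and Cidec differed by 0.10, 0.10 and 0.05. None of the 8 passed the test, and in 5 of the 8 every knockout array was above the control, against 25.6% of all transcripts. Those 5 include Adipoq, Lep and Retn, which were dim beside array medians of 1005 to 1011. Lep had intensities of 36.5, 56.4 and 45.1 in the knockout arrays, against 36.5, and was above the control by only 0.0029 in replicate 1. Retn had 68.4, 71.4 and 73.3, against 58.9. Cidec was as dim, so these counts rest in part on values near the low end of the arrays. Scd1, Me1 and Thrsp are also expressed in fat, and its part in these values was not tested.

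**Figure D5:**
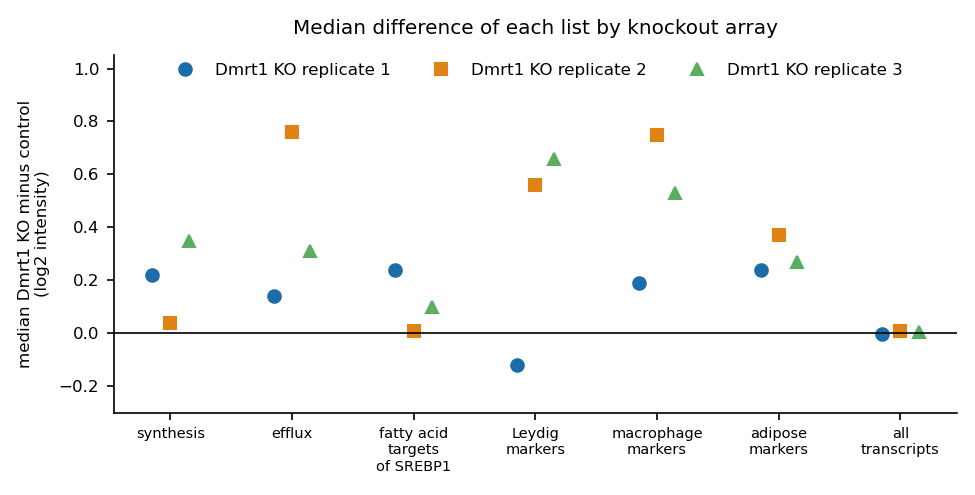
Median difference from the control (y axis, log2 intensity) in each of the 3 Dmrt1 KO arrays for the synthesis and efflux genes, fatty acid targets of SREBP1, markers of 3 cell types and all transcripts. The median of the synthesis genes is highest in replicate 3 (0.35) and lowest in replicate 2 (0.04). The medians of the efflux genes and macrophage markers are highest in replicate 2 (0.76 and 0.75), though not every macrophage marker is. All transcripts stay near 0.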

How the data were processed

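The authors hybridised Cy3-labelled RNA to a one-colour NimbleGen expression array and, per the submitters' processing notes, used RMA, whose version is not given in the sources used here. RMA corrects background, equalises array distributions and summarises probes, so differences are relative to each array as a whole. The deposited values are intensities on a linear scale, from 23.9 to 65156, for 25631 RefSeq transcripts. Transcript accessions without version were matched to a RefSeq gene table of GRCm38.p6, which named 17780 transcripts (69.4%). Where a gene had several, its brightest transcript on average was used.

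The log2 values were tested over all transcripts by limma (version 3.58.1, R version 4.3.3; lmFit, eBayes, two-sided, Benjamini-Hochberg adjusted, threshold 0.05), with 2 residual and 7.97 prior degrees of freedom. The script was tested on simulated data. The number of arrays limits the precision. The 33 genes and the lists were chosen with earlier results of these data known. Values in every array are given for the 12 genes with the largest absolute differences, for Hmgcs1 and Sqle and for partner pairs. In other lists the 4 largest differences are named, except for an item that is not reported here. Of the marker lists only some of these 4 are named, and of the endothelial and peritubular myoid lists none. Sox9, Gata4, Wt1, Dhh, Cyp11a1, Cyp17a1, Insl3, Lhcgr, Fabp4, Plin1 and Cidec were chosen after their values were seen. So were Lyz2, Adgre1, Csf1r, Cd14 and Mrc1. Alternatives left out each knockout array, renormalised, centred, added 50 to each value, kept the brighter transcripts, changed the variance prior or averaged transcripts.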

Additional observations from a re-analysis of the deposited data

How the results depend on the processing

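No paired analysis was possible because there was 1 control array, which every alternative kept, and no pairing is labelled. No gene of the 33 passed under any of the 10 alternatives, with a smallest adjusted p of 0.494 (Cyp51), nor at an adjusted p under 0.1. The brighter transcripts included 27 of the 33 genes, so that alternative did not cover Cyp51, Fdft1, Pmvk, Nsdhl, Tm7sf2 and Nr1h3, which were dimmer. The direction held in 26 of the 33 genes under the alternatives that covered them. It reversed when 1 knockout array was left out for Insig1 (-0.0016 to 0.02, reversed without replicate 1), Mvd (-0.28 to 0.07), Acat2 (-0.25 to 0.04) and Nr1h2 (-0.06 to 0.09), these last 3 reversed without replicate 2, and Mvk (-0.03 to 0.17) and Hsd17b7 (-0.14 to 0.21), both reversed without replicate 3. It also reversed for Insig2 when its transcripts were averaged (-0.15), and for Nr1h2 after quantile normalisation (0.01) or centring (0.0019). Over all transcripts, the 40 called higher became 58 to 62 without 1 knockout array (62 without replicate 3), 15 with 50 added to each value, 69 with a variance trend and 75 at an adjusted p under 0.1. The 128 called lower became 81 among the brighter transcripts, where fewer were tested, and 84 with 50 added. The causes of the other changes were not tested. Counts of genes with every knockout array on one side of the control, an alternative chosen after seeing the data, were 17 above and 5 below with all arrays (25.6% and 24.1% of all transcripts). They reached 24 above without replicate 2 (32.6%) and 7 below without replicate 3 (34.5%), where fewer arrays had to meet the bound.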
